A study of Homo sapiens with 12 samples.

Results

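The genes of human chromosome 8 were followed in LNCaP prostate cancer cells, from the tip of the short arm (8p) to the tip of the long arm (8q). A gene was included when it lay on chromosome 8 of GRCh37 and had at least 120 counts summed over the 12 libraries, and the genes were ordered by start and split into the arms at 45.6 Mb. Of 2291 chromosome 8 identifiers, 580 met the minimum, out of 16496 identifiers that met it in the whole genome. The short arm held 213 of them, with starts from 0.16 to 43.0 Mb, and the long arm 367, with starts from 47.49 to 146.28 Mb. Protein-coding genes made up 437 of the 580. Another 1711 identifiers stayed under the minimum, 811 of them with no count in any library. The genes just inside it were IDO2, with 120 counts, and KM-PA-2, with 123, and those just outside were CPA6, with 118, and RPS20P22, with 117. HGSNAT was the last gene of 8p and the pseudogene ASNSP1 the first of 8q. The genes were chosen by position and summed counts, and the chromosome itself was selected on the ratios of knockout to control CPM in these libraries, so these ratios are described here without a test.

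Chromosome 8 is among the chromosomes most often altered in prostate cancer, where 8p is commonly lost and 8q commonly gained. The short arm carries several candidate tumour suppressor genes and a cluster of receptors for the death ligand TRAIL. The long arm carries MYC, the transcription factor that drives growth, together with TPD52, NCOA2 and many genes for ribosomal proteins and translation factors. A change in the number of copies of a chromosome generally moves the transcript levels of many of its genes in the same direction, whereas a regulator acts on genes scattered over the genome.

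LNCaP is an established line from a lymph node metastasis of prostate cancer that responds to androgen. A TALEN pair, an engineered nuclease, had been directed at the start codon of Bag-1L, the longest protein made from the BAG1 gene, and this line (Bag-1L KO) was set beside a TALEN vector control line (control, Ctr). Each line was grown in full medium (FM) with serum, or deprived of hormone for 72 h and then given vehicle (EtOH) or 10 nM dihydrotestosterone (DHT), the androgen, for 16 h. Each of the 6 groups held 2 libraries, named as replicates 1 and 2 by the labels, without a statement of separate cultures, so their spread may be technical. KO cells had been isolated by serial dilution after transient transfection, so that what a clone carried by chance and the loss of Bag-1L cannot be told apart here. Copy number was not measured in these libraries.

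Gene counts per library ranged from 20826843 to 30354666, at which 3 counts equal 0.0988 to 0.144 CPM, the counts of a gene scaled to a fixed total per library. BAG1 transcript itself was lower in KO, by -0.43 in FM, -0.94 in EtOH and -1.14 in DHT (log2 fold change, standard error 0.18 in each, DESeq2 adjusted p = 0.07, 6.16e-06 and 7.71e-09). The start codon at which the nuclease was aimed lies within this transcript, and the cause of the lower level was not tested. The luminal markers KLK3, KLK2, FOLH1, HOXB13, KRT8, KRT18 and TMPRSS2 each had at least 34.2 CPM in every library, whereas the basal, stromal and blood markers stayed at or below 1.3 CPM.

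Chromosome 8 took a larger share of the counts in every KO library than in every control library. Its genes held 3.25% and 3.28% of the counts in the control FM libraries and 3.90% and 3.90% in the KO FM libraries. In EtOH the control libraries had 3.08% and 3.07% and the KO libraries 3.72% and 3.71%, and with DHT the control libraries had 3.19% and 3.24% and the KO libraries 3.81% and 3.73%. Both arms showed this separation. The 8p share lay between 0.681% and 0.918% in the control libraries and between 0.86% and 1.11% in the KO libraries, and within each condition the lines did not overlap. The 8q share lay between 2.34% and 2.41% in the control libraries and between 2.72% and 2.86% in the KO libraries, with no overlap at all.

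**Figure D1:**
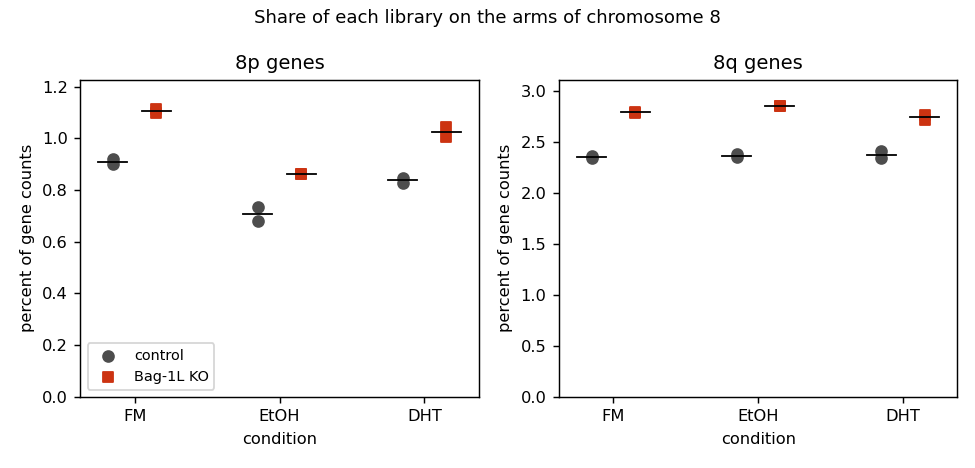
Percent of all gene counts that fell on 8p genes (left) and 8q genes (right), by condition, with each point 1 library and each bar the mean of 2. In every condition both Bag-1L KO libraries (squares) sit above both control libraries (circles), on 8q at 2.72% to 2.86% beside 2.34% to 2.41%.

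The same shift was seen gene by gene. For each gene the mean CPM in KO was divided by the mean CPM in control, a group under 3 counts being set to 3 counts. The median log2 ratio of 8p genes was 0.38 in FM, 0.34 in EtOH and 0.42 in DHT, and that of 8q genes 0.28, 0.31 and 0.38. For 15457 genes on the other chromosomes the medians were 0.05, 0.04 and 0.09, so that chromosome 8 stood 0.28, 0.28 and 0.30 above them, a level 1.21-, 1.21- and 1.23-fold higher. Taking each KO library alone against the control mean gave 8p medians of 0.37 and 0.34 in FM, 0.35 and 0.33 in EtOH and 0.44 and 0.42 in DHT, with an SD of at most 0.023. On 8q these were 0.28 and 0.28, 0.29 and 0.31, and 0.41 and 0.31, with an SD of at most 0.068. In each condition both 8p values lay above both 8q values, but the control EtOH libraries differed from each other by more than the arms did. Replicate 2 was lower than replicate 1 by a median of -0.23 on 8p, -0.10 on 8q and -0.11 elsewhere (log2), and leaving out 1 library at a time moved the 8p median in EtOH between 0.27 and 0.45.

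The shift was broad rather than carried by a few genes. The ratio was above 1 for 479, 470 and 487 of the 580 genes in FM, EtOH and DHT (82.6%, 81.0% and 84.0%), against 55.3%, 56.3% and 61.6% of genes on the other chromosomes. It was above 1 in all 3 conditions for 400 genes (69.0%, against 32.1% elsewhere) and below 1 in all 3 for 37 (6.4%, against 18.1%). Both KO libraries exceeded both control libraries for 69.1% of the genes in FM, 61.2% in EtOH and 66.4% in DHT, where 40.1%, 27.0% and 37.1% of genes elsewhere did so. The middle of the distribution of FM ratios ran from 0.08 to 0.59 on chromosome 8 (first to last quartile) and from -0.18 to 0.32 elsewhere, so single genes overlapped widely.

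No start and no end of the shift was found along the chromosome, since it was present at both tips and on both sides of the centromere. The median log2 ratio over 21 consecutive genes was above 0, and above the median of the other chromosomes, in all 560 windows in each condition. Neighbouring windows share most of their genes. Of the windows on the other chromosomes, 45.7% in FM, 51.3% in EtOH and 49.3% in DHT lay above that median. The 20 genes at the 8p tip, from RPL23AP53 to ANGPT2, had medians of 0.38 in FM, 0.31 in EtOH and 0.35 in DHT. The 20 genes at the 8q tip, from PPP1R16A to C8orf33, had 0.38, 0.28 and 0.40. Beside the centromere the last 20 genes of 8p, from GOLGA7 to HGSNAT, had 0.27, 0.44 and 0.63, and the first 20 genes of 8q had 0.19, 0.33 and 0.36. The weakest windows lay in different places, around EBAG9 in FM (0.08), around SDCBP in EtOH (0.07) and around CYRIB in DHT (0.11). These were only slightly above the medians of the other chromosomes, 0.05, 0.04 and 0.09. The strongest were centred on SLC39A4 in FM (0.74), FAM135B in EtOH (0.57) and DENND3-AS1 in DHT (0.68), all on distal 8q. The median of the chromosome 8 windows was 0.28 in FM, 0.32 in EtOH and 0.40 in DHT. Of 15017 such windows on the other chromosomes, 11.9%, 0.792% and 1.06% reached that window median. The genes that bound or centre these windows were named after their values had been seen.

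**Figure D2:**
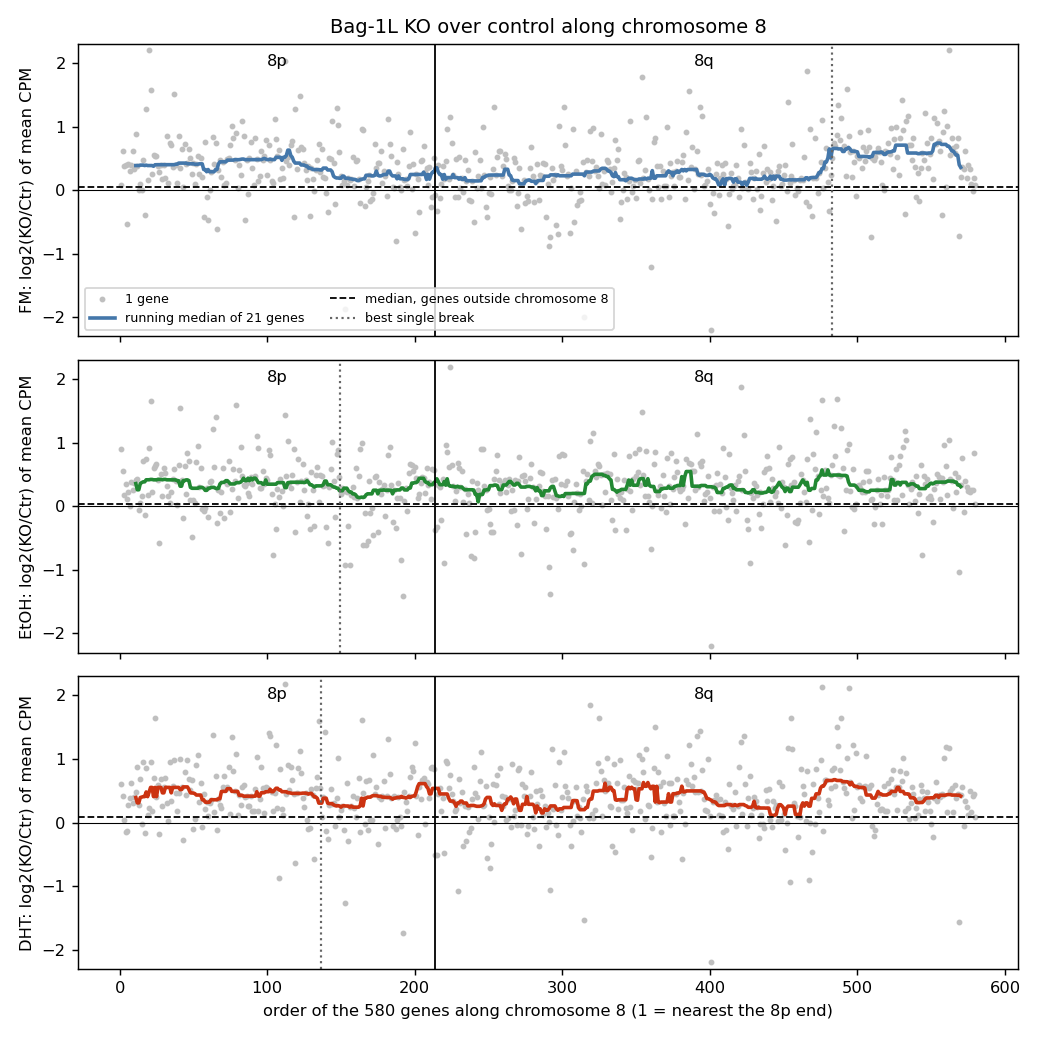
Log2 ratio of mean CPM in Bag-1L KO over control for each of the 580 genes in chromosomal order (grey points, those beyond 2.2 drawn at the edge), with the running median of 21 genes (colour), in FM, EtOH and DHT. The running median stays above the dashed line, the median of all other chromosomes, from the first window to the last, and the dotted best single break falls in a different place in FM than in EtOH and DHT.

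No single break divided the chromosome in all conditions, and none lay at the arm boundary. The split that best separated 2 levels fell after PTK2, the gene of focal adhesion kinase (141.67 Mb), in FM, with medians of 0.26 before and 0.60 after. In EtOH it fell after GTF2E2, the gene of a general transcription factor subunit (30.44 Mb), with 0.37 before and 0.30 after, and in DHT after INTS9, the gene of an Integrator subunit (28.63 Mb), with 0.46 and 0.38. These splits removed 4.91%, 0.445% and 0.541% of the summed deviation, where the best split on each of the other 22 chromosomes removed a median of 2.74%, 0.82% and 0.811%. Leaving out a library kept the FM break between 141.67 and 142.13 Mb. The EtOH break moved to 133.79 Mb without control EtOH replicate 2 and to 134.25 Mb without KO EtOH replicate 1. The DHT break moved to 104.17 Mb without control DHT replicate 2, to 136.87 Mb without KO DHT replicate 1 and to 145.11 Mb without KO DHT replicate 2. Allowing 2 breaks in FM gave 3 stretches with medians of 0.41 up to GTF2E2, 0.21 from there to PTK2 and 0.60 beyond it, and removed 8.49% of the deviation. In EtOH the pair fell at 30.44 and 41.39 Mb and removed 1.06%, and in DHT at 136.47 and 144.64 Mb and removed 1.71%, so the stretches did not coincide between conditions.

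The high FM ratios of distal 8q went with base composition. The 104 genes beyond 140 Mb had a median exonic GC content of 62.7% and median ratios of 0.59 in FM, 0.33 in EtOH and 0.45 in DHT. Across genes, which are not independent replicates, the FM ratio was higher at higher GC content on the other chromosomes (Spearman's rho = 0.48, n = 15457 genes) and on chromosome 8 (rho = 0.35, n = 580), whereas in EtOH and DHT rho stayed between 0.05 and 0.11. Within genes of GC content under 44.7%, chromosome 8 had a median FM ratio of 0.22 beside -0.14 elsewhere. Between 44.7% and 53.8% these were 0.34 and 0.02, and above 53.8% they were 0.56 and 0.28, so chromosome 8 was higher in each class. The same held over classes of abundance, with medians in FM of 0.38, 0.30 and 0.30 from the scarcest to the most abundant chromosome 8 genes and 0.16, 0.04 and -0.00 elsewhere. Protein-coding genes had medians of 0.31, 0.32 and 0.40 in FM, EtOH and DHT, and 106 long noncoding genes 0.52, 0.42 and 0.47, beside 0.27, 0.16 and 0.26 for long noncoding genes elsewhere. The 37 members of other classes, mostly pseudogenes, did not share the shift on 8q, with medians of 0.07, 0.21 and 0.33 for 16 on 8p and -0.03, -0.06 and -0.19 for 21 on 8q. Reads that also match the parent gene elsewhere are left out by the counting program, so these counts are uncertain.

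No other whole chromosome had a median ratio as high in any condition, although stretches of other chromosomes did. The medians of the other 22 chromosomes ran from -0.07 on chromosome 18 to 0.23 on chromosome 19 in FM, from -0.02 on chromosome 12 to 0.08 on chromosome 13 in EtOH, and from 0.02 on chromosome 12 to 0.16 on chromosome 13 in DHT. The chromosome 8 values were 0.32, 0.32 and 0.40. The part of chromosome 13 before its best break, found in each condition separately, had medians of 0.27 in FM, 0.38 in EtOH and 0.46 in DHT, with -0.04, 0.00 and 0.06 in the rest of that chromosome. Chromosome 19, the nearest in FM, had the highest GC content, with a gene median of 58.4%, and its medians were 0.03 in EtOH and 0.07 in DHT.

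**Figure D3:**
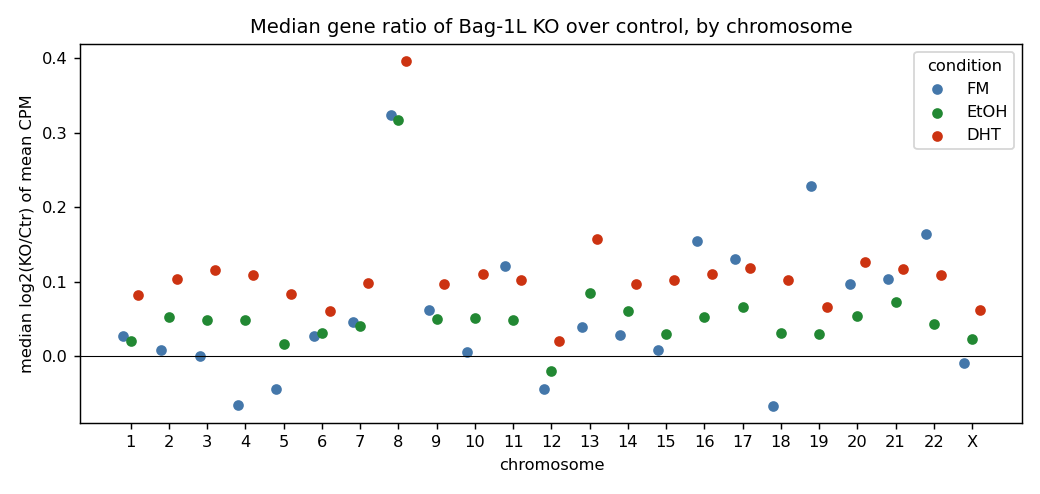
Median log2 ratio of mean CPM in Bag-1L KO over control for the genes of each chromosome, in FM, EtOH and DHT. Chromosome 8 lies at 0.32, 0.32 and 0.40, above each of the other 22 chromosomes in the same condition, the nearest of which reach 0.23, 0.08 and 0.16.

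Among genes of 8p often named as tumour suppressor candidates, 15 of 18 met the count minimum, and their median ratios were 0.39, 0.29 and 0.38 in FM, EtOH and DHT. The ratio was above 1 for 14, 12 and 15 of the 15. PPP2R2A, a regulatory subunit of protein phosphatase 2A, lay above the list median in each condition. It had 120 and 122 CPM in the control FM libraries and 169 and 162 in KO, 222 and 191 in control EtOH and 300 and 278 in KO, and with DHT 125 and 122 in control cells, 174 and 164 in KO cells. Control and KO did not overlap in any condition, and the log2 ratios were 0.46, 0.48 and 0.45. BNIP3L, which marks mitochondria for autophagy, had ratios of 0.40, 0.37 and 0.51, VPS37A, an ESCRT subunit, 0.51, 0.60 and 0.62, and TUSC3, an oligosaccharyltransferase subunit, 0.10, 0.05 and 0.06. CSMD1, a large membrane protein, reached 0.47, 0.72 and 0.95.

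All 4 TRAIL receptor genes of 8p were measured, and each had a ratio above 1 in every condition, with medians of 0.36, 0.46 and 0.45. TNFRSF10D (ENSG00000173530, 22993101 to 23021540), a decoy receptor that lacks a working death domain, was the furthest apart of the 4 in EtOH and DHT. It had 43.9 and 43.8 CPM in the control FM libraries and 63.1 and 60.0 in KO, 57.2 and 46.9 in control EtOH and 112 and 114 in KO, and with DHT 49.6 and 46.5 in control cells, 97.3 and 99.1 in KO cells. The lowest KO library was thus above the highest control library, and the ratios were 0.49, 1.12 and 1.03. The signalling receptors TNFRSF10A and TNFRSF10B had ratios of 0.23, 0.29 and 0.37 and of 0.08, 0.44 and 0.18. The decoy receptor TNFRSF10C had 0.82, 0.49 and 0.53, but 28.0% of the 50-base words in its transcripts also occur in other genes. The 23 genes listed for the 8p11-p12 region, which is amplified in some carcinomas, had medians of 0.25, 0.34 and 0.42. They included FGFR1, a fibroblast growth factor receptor (0.54, 0.34 and 0.39), NSD3, a histone methyltransferase (-0.09, 0.25 and 0.43), KAT6A, a histone acetyltransferase (0.02, 0.65 and 0.87), and EIF4EBP1, a repressor of translation (0.42, -0.41 and -0.33).

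Further 8p genes of high ratio were EBF2, RBPMS and the noncoding MCPH1-DT. EBF2 (ENSG00000221818, 25699241 to 25902929), a transcription factor known from brown fat cells, had 2.08 and 2.56 CPM in control FM and 10.2 and 8.9 in KO, 10.9 and 6.23 in control EtOH and 22.8 and 23.6 in KO, and with DHT 4.37 and 3.63 in control cells, 18.1 and 18.2 in KO cells. Within each condition the lines did not overlap, and its ratios of 2.04, 1.44 and 2.18 went far beyond the arm's median. RBPMS, an RNA-binding protein gene, had 1.03, 0.89 and 1.02, and it overlaps the antisense gene RBPMS-AS1, whose reads cannot be told apart without the strand setting of the counting. Ratios below 1 in every condition were found on 8p for PSD3, an exchange factor for ARF6 (-0.61, -0.27 and -0.11), DUSP4, a phosphatase of MAP kinases (-0.34, -0.57 and -0.26), and KIF13B, a kinesin (-0.04, -0.32 and -0.13).

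On 8q the genes with the best known roles in prostate cancer did not all share the shift. MYC (ENSG00000136997, 128747680 to 128755197) had 290 and 275 CPM in control FM and 274 and 262 in KO, 497 and 436 in control EtOH and 384 and 401 in KO, and with DHT 273 and 233 in control cells, 290 and 315 in KO cells. KO was below control in FM and EtOH and above it in DHT, with ratios of -0.08, -0.25 and 0.26. PVT1, the noncoding neighbour of MYC, had 0.03, -0.25 and 0.11. TPD52, a gene commonly gained in prostate tumours, had 0.71, 0.34 and 0.57, whereas NCOA2, a nuclear receptor coactivator, had -0.20, 0.40 and 0.56. LAPTM4B, a lysosomal membrane protein, had 0.76, 0.66 and 0.86, and MTDH, its neighbour, -0.14, -0.00 and -0.08. Over the 24 measured genes listed for 8q24 the medians were 0.21, 0.29 and 0.27, and over the 23 listed for 8q11 to q23 they were 0.19, 0.34 and 0.50.

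Among 8q genes with at least 1200 counts, the widest departures upwards were those of TG, PCAT1, PSCA, CA13 and KIFC2. PSCA (ENSG00000167653, 143751726 to 143764143), a surface antigen of prostate cells, had 6.06 and 6.37 CPM in control FM and 19.0 and 18.7 in KO, 5.64 and 7.21 in control EtOH and 12.1 and 11.6 in KO, and with DHT 5.95 and 6.68 in control cells, 12.3 and 13.1 in KO cells. All 6 KO libraries were above all 6 control libraries. PCAT1, a noncoding RNA of prostate cancer, had ratios of 1.38, 0.67 and 1.17, and KIFC2, a kinesin, 1.25, 0.97 and 1.02. The widest departures downwards among such genes were those of RALYL, SDC2 and NDRG1. RALYL (ENSG00000184672, 85095022 to 85834079), an RNA-binding protein gene, had 12.8 and 10.8 CPM in control FM and 2.94 and 2.94 in KO, 5.92 and 4.95 in control EtOH and 2.98 and 2.84 in KO, and with DHT 7.25 and 7.81 in control cells, 2.60 and 2.58 in KO cells. All 6 KO libraries were below all 6 control libraries, and the ratios were -2.0, -0.90 and -1.54. SDC2, a heparan sulfate proteoglycan of the cell surface, had -1.20, -0.67 and -0.55. Among all 580 genes the lowest ratio in each condition was that of the scarce antisense RNA ZFPM2-AS1 (250 counts in all), at -3.41, -2.88 and -3.82. The highest were those of ENSG00000255182 in FM (2.44, 211 counts in all), OPRK1, an opioid receptor gene of 8q, in EtOH (2.39, 414 counts in all) and EBF2 in DHT. These scarce genes were named after their values had been seen.

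Each list of genes of basic cell functions on chromosome 8 had a median log2 ratio above 0 in each condition, from 0.14 to 0.56. Of 12 genes of ribosomal proteins and translation factors, 12, 10 and 10 had a ratio above 1 in FM, EtOH and DHT, with medians of 0.38, 0.27 and 0.26. PABPC1, the cytoplasmic poly(A)-binding protein, had 1860 and 1820 CPM in control FM and 2189 and 2061 in KO, 1830 and 1822 in control EtOH and 2197 and 2254 in KO, and with DHT 1431 and 1481 in control cells, 1829 and 1805 in KO cells. Control and KO did not overlap, and the ratios were 0.21, 0.29 and 0.32. EIF3H, a subunit of initiation factor 3, had 0.28, 0.28 and 0.27. RPL8, a protein of the large ribosomal subunit, had 0.34, -0.09 and -0.05, and its control EtOH libraries lay far apart at 1818 and 2607 CPM. The 14 vesicle transport genes had medians of 0.37, 0.56 and 0.52, the 21 mitochondrial and metabolic genes 0.38, 0.20 and 0.32, the 19 replication and mitosis genes 0.17, 0.14 and 0.19, and the 13 ubiquitin, proteasome and COP9 genes 0.22, 0.37 and 0.27. The 3 chaperone and heat shock genes measured had medians of 0.31, 0.32 and 0.42. HSF1, the heat shock transcription factor, had 0.74, 0.44 and 0.47, and BAG4, a relative of BAG1 on 8p, 0.11, 0.27 and 0.42.

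Calls for single genes are given as a description only, because this contrast had been in view when the chromosome was chosen. A call required a DESeq2 adjusted p of at most 0.05 and a fold change of at least 1.5. In FM 74 of 539 genes tested were called higher and 6 lower in KO, where 5.29% and 2.5% of all genes tested were called. In EtOH 47 of 560 were higher and 11 lower, against 2.87% and 2.37%, and in DHT 66 were higher and 11 lower, against 4.66% and 3.32%. The rest of the 580 received no adjusted p because their counts were low. The 80 calls in FM became 42 without control FM replicate 2 and 41 without KO FM replicate 2. The 58 in EtOH became 88 without control EtOH replicate 1, 37 without KO EtOH replicate 1 and 31 without KO EtOH replicate 2, and the 77 in DHT became 46 without control DHT replicate 2.

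The response to DHT was compared next, since it sets DHT against EtOH within a line, so that a factor common to all KO libraries cancels. In control 49 of the 580 genes were called higher with DHT and 51 lower, where 6.21% and 5.54% of all genes tested were called. In KO 41 were called higher and 26 lower, where the background was 4.55% and 3.34%. On 8p 25 genes were called higher and 16 lower in control (11.7% and 7.51%), and 20 and 8 in KO (9.39% and 3.76%). On 8q the control cells had 24 rises and 35 falls (6.54% and 9.54%), the KO cells 21 and 18 (5.72% and 4.9%). As shares of the 580 genes the calls were 8.45% higher and 8.79% lower in control and 7.07% and 4.48% in KO. Each of these was somewhat above the background just given. By arm, the 8q rises in control and the 8p falls in KO lay close to it.

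Among genes with at least 1200 counts, the strongest responses were those of androgen-induced genes, and they were seen in both lines. Below that minimum, ANGPT2 on 8p (1153 counts in all) rose by 3.96 in control and 3.17 in KO (log2, standard errors 0.38 and 0.33). NDRG1 (ENSG00000104419, 134249418 to 134314265), a differentiation gene with a known androgen response, went from 199 and 205 CPM in EtOH to 2857 and 2794 with DHT in control cells, and from 135 and 138 to 1510 and 1521 in KO cells. The EtOH and DHT libraries were far apart in each line, and the KO libraries were the lower ones in both conditions. The log2 rise was 3.94 in control and 3.55 in KO (standard error 0.10 in each), but the responses did not differ past the threshold (-0.39 ± 0.14 SE, DESeq2 adjusted p = 0.467). TG (ENSG00000042832, 133879203 to 134147147), which encodes thyroglobulin, went from 0.403 and 0.234 CPM in EtOH to 7.14 and 5.76 with DHT in control cells, and from 0.672 and 0.401 to 12.7 and 10.1 in KO cells. Its rises of 4.48 (standard error 0.42) and 4.51 (standard error 0.36) lay close together, while its level in DHT was higher in KO. SNAI2, a repressor of epithelial genes, rose by 3.40 ± 0.27 (SE) in control cells and by 3.74 ± 0.33 in KO cells. On 8p, CSGALNACT1, an enzyme of chondroitin sulfate synthesis, rose by 1.99 and 2.31, ADAM7, a gene of the epididymis, by 1.92 and 1.82, and MTMR9, a relative of the myotubularin phosphatases, by 1.82 and 1.82, with standard errors between 0.14 and 0.19. TPD52 rose by 1.10 and 1.27 and ATAD2, a chromatin protein, by 1.10 and 1.49. KRT8P3 also passed in both, but 38.4% of its 50-base words occur in other genes. Each rise named here passed in both lines.

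Among genes with at least 1200 counts, falls with DHT were led by CA8, MMP16, DEPTOR and TP53INP1 on 8q and by ZNF703 on 8p. CA8, a carbonic anhydrase relative, went from 9.50 and 9.31 CPM in EtOH to 2.00 and 1.25 with DHT in control cells, and from 16.9 and 18.2 to 3.36 and 3.66 in KO cells. EtOH and DHT did not overlap in either line, and KO was higher than control in both. The log2 changes were -2.41 ± 0.24 (SE) and -2.25 ± 0.21. TP53INP1, a p53-induced stress gene, changed by -1.25 and -1.14 (standard error 0.12 in each), with ratios of KO to control of 0.90 in EtOH and 1.07 in DHT. ZNF703, a transcriptional repressor, changed by -1.38 and -1.0, and DEPTOR, an inhibitor of mTOR, by -1.42 and -0.73, and both passed in each line. MMP16, a membrane metalloproteinase, changed by -1.78 ± 0.20 (SE) in control cells and by -0.83 ± 0.19 in KO cells, 0.94 ± 0.28 apart, short of the threshold (DESeq2 adjusted p = 0.128). MYC fell by 0.75 in control (standard error 0.10) and changed by -0.30 in KO, where it did not reach the fold minimum, with the responses 0.45 ± 0.14 (SE) apart, short of the threshold (DESeq2 adjusted p = 0.206).

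The 9 genes measured of a list chosen for its link to androgen signalling had median ratios of KO to control of 0.11, 0.20 and 0.49. With DHT, 4 of them were called higher and 1 lower in control, and 5 higher and 1 lower in KO, so that 4 and 3 of the 9 did not pass. GRHL2, an epithelial transcription factor, rose by 0.79 in control and 1.21 in KO (standard error 0.13 in each), and TRPS1, a GATA-type repressor, fell by 0.76 and by 1.05. FDFT1, which makes squalene for cholesterol synthesis, rose by 0.87 and 0.73 (standard error 0.13 in each). Translation and ribosomal genes had no call in either line, with median changes of -0.08 and -0.16. Of the tumour suppressor candidates of 8p, 2 were called higher and 2 lower in control and 1 and 1 in KO, and of the 8q24 genes 3 and 4 in control and 3 and 2 in KO. The background was 6.21% higher and 5.54% lower in control and 4.55% and 3.34% in KO. It stands beside these counts, from 15 and 24 genes, and those of the 9 genes linked to androgen signalling. With so few genes nothing is read from any of these counts.

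**Figure D4:**
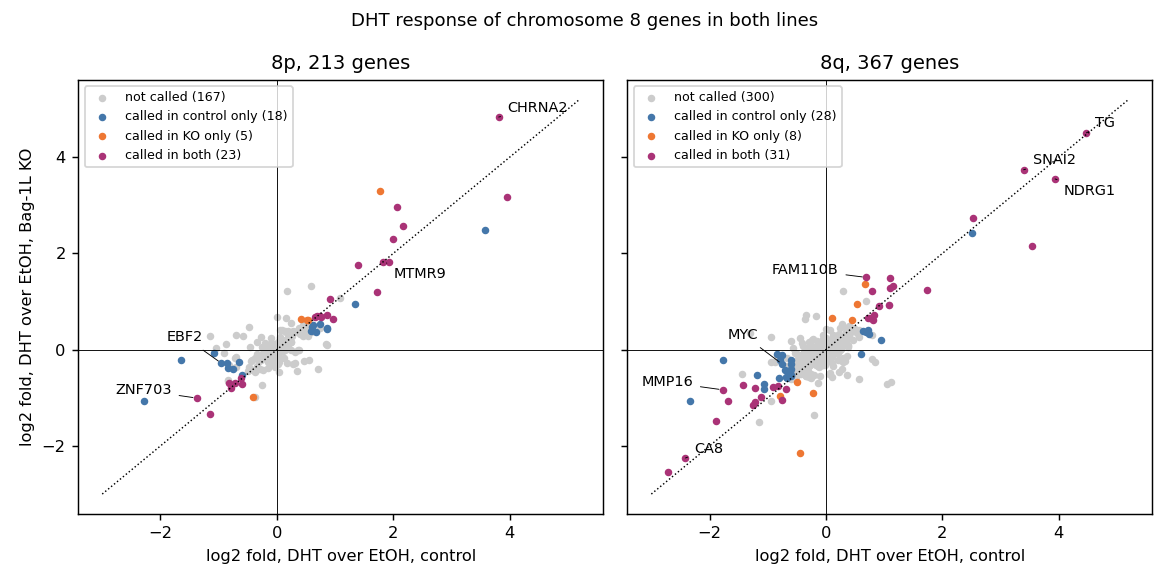
Log2 fold change with DHT over EtOH in control (horizontal) and in Bag-1L KO (vertical) for 8p genes (left) and 8q genes (right), coloured by whether they were called, with the line of equal response dotted. Genes called in both lines, 23 on 8p and 31 on 8q, all lie in the quadrants of equal direction, with TG, NDRG1, SNAI2 and CHRNA2 at the top.

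Of 41 8p genes called in control, 23 were also called in KO, and of 59 8q genes, 31 were, while on the other chromosomes it was 986 of 1846. None was called in opposite directions here or elsewhere, and 99 of the 100 chromosome 8 genes called in control had the same sign in KO, beside 1820 of the 1846. The direction of the responses was thus kept on both arms, as it was on the other chromosomes. Over the genes called in control, the median change in KO was 80.2% of that in control on 8p (0.70 and 0.87 on the log2 scale) and 86.8% on 8q (0.73 and 0.85), while for 1846 genes on the other chromosomes it was 74.9%. Choosing genes by their call in 1 line favours that line, so the reverse was computed too. Over the genes called in KO, the median change in control was 101% of that in KO on 8p and 104% on 8q, with 103% on the other chromosomes. Across genes the changes in the lines had a rho of 0.75 on 8p (n = 213), 0.68 on 8q (n = 367) and 0.73 elsewhere (n = 15457), with no library shared between them. Leaving out 1 library at a time moved the share kept between 70.6% and 90.9% on 8p and between 74.9% and 88.9% on 8q, ranges that overlap widely.

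A different response was found for 3 of the 474 genes tested, 0.63% beside 0.379% of all genes tested, and in each the response was larger in KO. Of these, CHRNA2 and FAM110B are described. CHRNA2 (ENSG00000120903, 27317273 to 27337400), a nicotinic receptor subunit, went from 2.17 and 2.45 CPM in EtOH to 32.9 and 26.7 with DHT in control cells, and from 2.59 and 2.24 to 62.6 and 67.9 in KO cells. Its lines overlapped in EtOH and were separated in DHT, with a difference of 1.02 (standard error 0.27, DESeq2 adjusted p = 0.0396). FAM110B (ENSG00000169122, 58907082 to 59116838), a centrosomal protein gene, went from 19.3 and 17.8 CPM in EtOH to 27.0 and 27.5 with DHT in control cells, and from 14.2 and 13.9 to 35.0 and 40.5 in KO cells. It crossed from below control to above it, with a difference of 0.82 (standard error 0.19, DESeq2 adjusted p = 0.00614). Neither difference passed under every alternative tried. With edgeR the adjusted p was 0.142 for CHRNA2 and 0.062 for FAM110B. FAM110B also failed without control DHT replicate 1, KO DHT replicate 2 or either KO EtOH replicate, and CHRNA2 failed without control DHT replicate 2, control EtOH replicate 2, or any 1 of the KO EtOH and KO DHT replicates. In FM, which this test did not compare, the ratios were 1.49 for CHRNA2 and 0.60 for FAM110B.

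**Figure D5:**
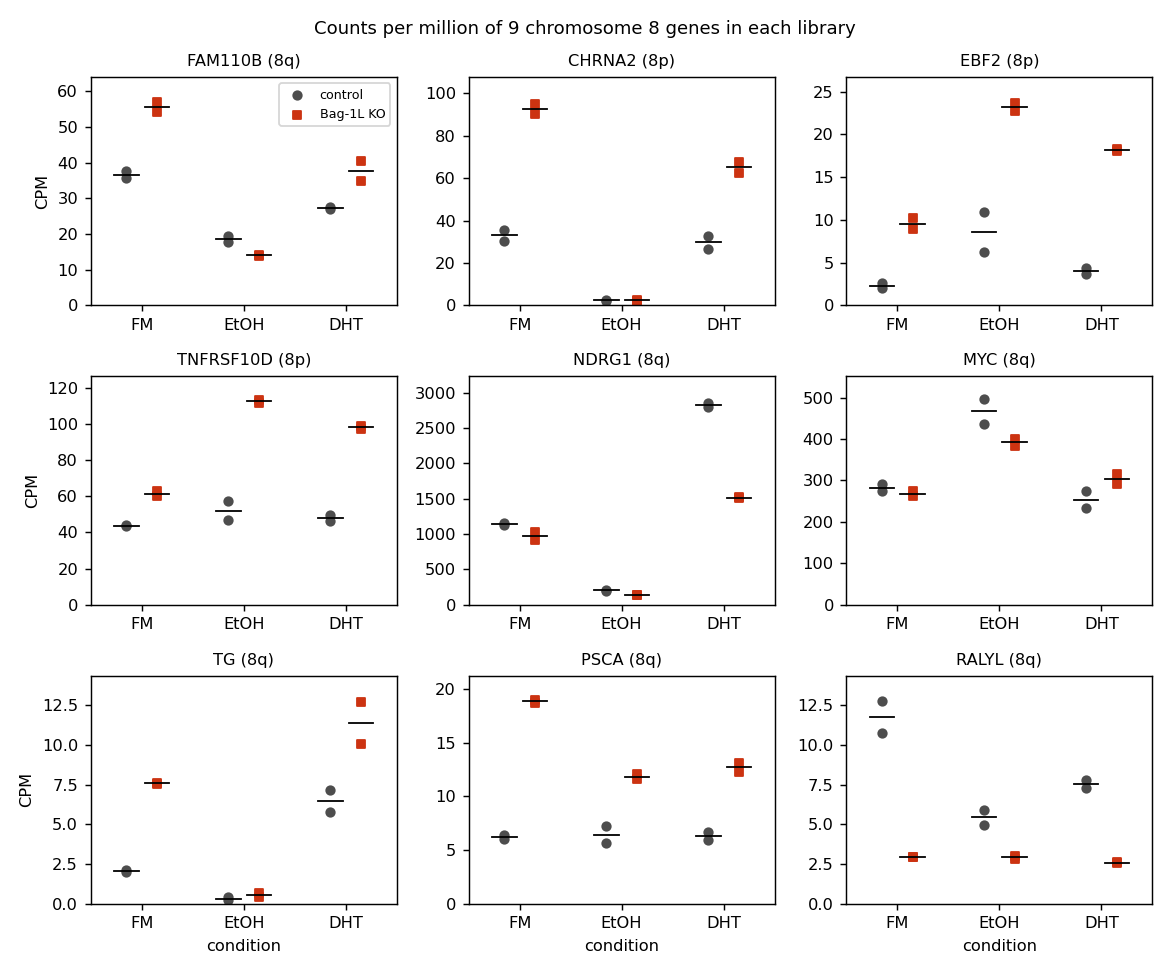
CPM of 9 chromosome 8 genes in each library by condition, control as circles and Bag-1L KO as squares, with bars for the mean of 2. FAM110B lies lower in KO in EtOH (14.2 and 13.9 beside 19.3 and 17.8 CPM) and higher in DHT, while EBF2, TNFRSF10D and PSCA lie higher and RALYL lower in every KO library of each condition.

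The ratios of KO to control were also set out by the DHT response, without a test between the classes. In FM the median ratio of KO to control was 0.26 for 57 genes called higher with DHT in either line. It was 0.35 for 56 genes called lower and 0.33 for the 467 called in neither. All 3 classes thus lay above the 0.05 of other chromosomes in FM. The calls did not compare the FM libraries, but the fit to all 12 libraries drew on them for its estimate of spread. In EtOH the medians were 0.14, 0.48 and 0.32 and in DHT 0.18, 0.64 and 0.39, but those libraries also chose the classes. The ratios themselves were related between conditions that share no library, with a rho of 0.47 between FM and EtOH, 0.43 between FM and DHT and 0.66 between EtOH and DHT over the 580 genes, beside 0.40, 0.37 and 0.68 over genes on the other chromosomes.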

How the data were processed

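RNA-seq was available for 12 LNCaP libraries in 6 groups of 2. Per the labels, poly(A) RNA was made into stranded TruSeq libraries, and the submitters' processing notes name CASAVA 1.7, TopHat2 2.0.11 and HTSeq 0.5.3p3. The reads were mapped to GRCh37. The strand setting and the Ensembl release are not given in the sources used here. The deposited values are counts per Ensembl gene, made by the authors without normalization, for 63677 identifiers and 5 tallies of uncounted reads (26.9% to 31.5% of the reads tallied in a library), which were left out. HTSeq drops reads that match several places or overlap several genes.

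GENCODE gene models lifted to GRCh37 supplied positions, symbols and GC contents for 55665 identifiers, while 421 identifiers with at least 120 counts had no entry, and whether any lies on chromosome 8 was not examined. CPM used the total of all gene counts. DESeq2, the tool named in the study's methods (version 1.42.0 here, R 4.3.3), was fitted to all 12 libraries with 1 coefficient per group on genes with at least 10 counts in all, and p-values were adjusted over all genes tested. Break points were the split, with at least 20 genes a side, of least summed absolute deviation from the medians. The alternatives were edgeR (version 4.0.16) with TMM, other size factors, filters and gene classes, a replicate block, and leaving out each library. Fits and break search were tested on simulated data. The floor of 3 counts covers counting error only. Standard errors come from the DESeq2 fit, which also estimates the spread between libraries of a group. Replicates were not identical libraries (chi-square per degree of freedom 3.49 to 41.65).

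The chromosome, the gene lists and the tests were chosen with earlier results of these data known. The text names the members of the lists that illustrate them, the 5 highest and 5 lowest ratios, the 5 largest DHT rises and falls and the 5 most abundant genes of each arm among members with at least 1200 counts, those with a different DHT response, and the neighbours of break points and thresholds, and leaves out some that add nothing. Results for 1 member and 1 marker gene are not reported here, although the counts and medians over genes include that member.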

Additional observations from a re-analysis of the deposited data

Results flagged for a closer look

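The response to DHT differed between the lines for CHRNA2 and FAM110B, by the DESeq2 test of the difference itself. The log2 change in KO exceeded that in control by 1.02 for CHRNA2 and by 0.82 for FAM110B. Neither passed under every alternative.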

How the results depend on the processing

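The direction of every median and named response held under all alternatives tried. With edgeR, or with a fit to only the samples compared, 1 gene kept a different DHT response in place of 3, and leaving out 1 library gave 1 to 4. Without a fold minimum the calls became 114 for DHT in KO, and 153, 130 and 166 for KO against control in FM, EtOH and DHT. A fit to only the samples compared gave 69 calls for DHT in control in place of 100. For KO against control in EtOH it gave 33. Leaving out 1 library gave 41 to 58 calls in FM, 31 to 88 in EtOH and 46 to 87 in DHT. TMM scaling lowered the median log2 ratios to 0.33, 0.28 and 0.33 on 8p and 0.23, 0.25 and 0.29 on 8q. The 8q median in FM was 0.29 per total outside chromosome 8, 0.26 with at least 1200 counts and 0.27 for protein-coding genes. Leaving out 1 library gave 8p medians of 0.34 to 0.39, 0.27 to 0.45 and 0.41 to 0.47, and 8q medians of 0.27 to 0.30, 0.28 to 0.35 and 0.31 to 0.41. Leaving out 1 library put the breaks at 141.67 to 142.13 Mb in FM, 28.91 to 134.25 Mb in EtOH and 28.63 to 145.11 Mb in DHT, and the other alternatives put them at 23.35 to 27.45 Mb in EtOH and 27.35 to 28.63 Mb in DHT. Without a fold minimum 74.9% of the DHT response was kept on 8p and 68.6% on 8q, and leaving out 1 library gave 70.6% to 90.9% and 74.9% to 88.9%. The cause of these moves was not tested.

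With a replicate block the calls were 100 and 66 for DHT in control and KO, 2 for the difference and 76, 58 and 77 for KO against control in FM, EtOH and DHT, and 80.2% and 86.7% of the DHT response was kept on 8p and 8q. CHRNA2 was the difference lost (adjusted p = 0.0512). The numbers were not shown to pair the libraries, since deviations of equally numbered libraries correlated between -0.416 and 0.692 over 15 pairs of groups. With 2 libraries a group, small differences were not detectable.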
